A study of Mus musculus with 8 samples.

Results

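Vav1, Inpp5d, Sla, Tlr4 and Cd52 are genes of signalling and surface proteins that are known from white blood cells, and here they were measured in hair cells, which turn sound into nerve signals, sorted from the mouse cochlea. They were picked out of the 25343 genes of the deposited table by name, 5 of 5 being found. They were chosen by their measured counts, at or near 0 in wild type and present in the knockout, so their difference between the genotypes is a description and not a test. There were 4 libraries of Ndp KO mice and 4 of WT mice. Ndp encodes norrin, a secreted protein that signals through the receptor Fzd4. All mice were 4 to 6 days old, on a mixed C57BL/6 and 129 background, and each library came from 12 to 20 pooled sensory epithelia sorted for Atoh1-GFP, a hair cell reporter shared by both genotypes. The deleted stretch of Ndp and the litters behind each pool are not given in the labels. A p-value here therefore weighs a difference against the scatter of these 8 libraries only, and that scatter may be technical.

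The proteins belong to different signalling routes of leukocytes. Tlr4 encodes the receptor for bacterial lipopolysaccharide, which works with the co-receptors encoded by Ly96 and Cd14 and with the adaptor encoded by Myd88. Vav1 encodes an exchange factor that switches on GTPases of the Rac family after tyrosine kinases have acted. Inpp5d encodes SHIP, a phosphatase that removes the lipid made by PI3 kinase, and Sla encodes an adaptor that dampens antigen receptor signalling. Cd52 encodes a short glycoprotein with a lipid anchor on the leukocyte surface.

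The RefSeq promoter windows (build GRCm38.p6, from 250 bases before to 50 after the gene start) held an entry for Vav1 and Inpp5d, and the other 3 genes are named only. Both windows are shown because they were the only ones available. Both hold the letters GAGGAAGT, a purine-rich word of the kind bound by ETS factors such as that of Spi1, printed in capitals. The word was chosen after both sequences had been read. It lay 11 to 4 bases before the start of Vav1 and 20 to 13 bases before that of Inpp5d, on the coding strand of each. Searched on both strands, it occurred in 3.20% of all 32851 windows and in 11 of 154 windows of the related genes described further on (7.14%). Such a match is a description of letters and not a binding site. The windows are chr17:57278850-57279149 for Vav1 and chr1:87620062-87620361 for Inpp5d, each on the plus strand.
Vav1: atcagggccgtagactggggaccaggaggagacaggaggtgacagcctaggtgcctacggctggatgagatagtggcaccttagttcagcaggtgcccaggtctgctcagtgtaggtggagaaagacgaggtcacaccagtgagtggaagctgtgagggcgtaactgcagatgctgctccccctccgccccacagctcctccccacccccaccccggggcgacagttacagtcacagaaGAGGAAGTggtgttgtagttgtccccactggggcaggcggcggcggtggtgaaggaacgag
Inpp5d: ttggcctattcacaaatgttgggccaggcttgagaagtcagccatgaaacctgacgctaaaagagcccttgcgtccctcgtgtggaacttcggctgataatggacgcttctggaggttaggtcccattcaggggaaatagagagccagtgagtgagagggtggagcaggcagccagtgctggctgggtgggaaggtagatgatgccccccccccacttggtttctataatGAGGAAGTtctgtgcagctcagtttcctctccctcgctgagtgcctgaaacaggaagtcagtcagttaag

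Whole reads recovered from the normalized counts, which are counts divided by a size factor per library, numbered 35077950 to 48329827 per library. They may be rounded estimates, since how the counts were made is not described. At this depth 3 reads, the floor used here for each library, equal 2.34 to 3.49 normalized counts, and floors and intervals cover counting error only. Complementary DNA was made from 1.6 to 2.4 pg of total RNA, per the labels' protocols. Ndp, the targeted gene, had 10.5, 22.6, 66.8 and 45.1 normalized counts in Ndp KO libraries 1 to 4. In WT libraries 1 to 4 it had 174, 90.4, 114 and 206. It was lower in every knockout library, as were 1.46% of all 25343 genes. Its log2 difference was -2.20 ± 0.56 (SE), with an adjusted p of 0.895 by limma, 0.996 by edgeR and 0.129 by DESeq2. A difference of this size can thus miss the threshold of 0.05 in these libraries. Hair cell markers such as Pou4f3 and Myo7a summed to 10383 to 12044 CPM in Ndp KO and 9863 to 11955 CPM in WT (CPM, counts scaled to a common library total), so the libraries carry the labelled cell type. Other cell types were present as well. Markers of supporting cells, the neighbours of hair cells, summed to 5848 to 7810 CPM in Ndp KO and 5203 to 9710 CPM in WT. Macrophage markers are given beside the results they touch. In such bulk libraries fewer cells of a type and less RNA per cell cannot be told apart.

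All 5 genes were detected in every knockout library, and in wild type the levels ran from no read at all (Vav1 and Sla) to 31 reads in a library (Tlr4). Non-overlap of the genotypes in this direction was found for 1.39% of all 25343 genes, and for these 5 it follows from how they were chosen. In the authors' deposited table all 5 were among the 23 genes with an adjusted p under 0.05 that were higher in the knockout, 0.0917% of those with a value (0.136% in either direction), and this too is part of the choice.

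Tlr4, the receptor, was the only one of the 5 with reads in all 4 wild-type libraries. Tlr4 (ENSMUSG00000039005, chromosome 4, 66827584 to 66930284, plus strand, mm10 as in the deposited table) had 66.4, 114, 73.1 and 119.9 normalized counts in Ndp KO libraries 1 to 4, against 7.39, 28.3, 0.780 and 5.81 in WT libraries 1 to 4. All knockout libraries lay above all wild-type libraries, whose highest, library 2, held 31 reads and whose lowest, library 3, held 1. The mean was 93.3 ± 27.4 in Ndp KO and 10.6 ± 12.1 in WT (SD, n = 4 each), and the ratio of summed reads, scaled for library size, was 8.81 (95% counting interval 6.43 to 12.3, exact binomial).

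Vav1, the exchange factor, had no read in any wild-type library. Vav1 (ENSMUSG00000034116, chromosome 17, 57279100 to 57328031, plus strand) had 32.7, 61.8, 12.6 and 35.2 normalized counts in Ndp KO libraries 1 to 4, against 0, 0, 0 and 0 in WT libraries 1 to 4. The knockout values of Vav1 rested on 31, 63, 14 and 32 reads, so every one lay above the 3-read floor, and library 3 was the lowest. Their mean was 35.6 ± 20.2 (SD, n = 4), at least 48.5-fold higher than a floor of 3 reads over the whole WT group, which is worth 0.733 normalized counts.

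Inpp5d, the lipid phosphatase, stood at 0 to 3 reads in the wild-type libraries. Inpp5d (ENSMUSG00000026288, chromosome 1, 87620312 to 87720507, plus strand) had 23.2, 56.9, 49.6 and 89.1 normalized counts in Ndp KO libraries 1 to 4, against 3.17, 1.83, 0 and 1.16 in WT libraries 1 to 4. The genotypes did not overlap, and the lowest knockout library held 22 reads. The mean was 54.7 ± 27.1 in Ndp KO and 1.54 ± 1.32 in WT (SD, n = 4 each), and the ratio of summed reads, scaled for library size, was 37.8 (95% counting interval 17.1 to 104).

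Sla, the dampening adaptor, was again at 0 reads in all 4 wild-type libraries. Sla (ENSMUSG00000022372, chromosome 15, 66780819 to 66831829, minus strand) had 33.7, 20.6, 18.9 and 6.60 normalized counts in Ndp KO libraries 1 to 4, against 0, 0, 0 and 0 in WT libraries 1 to 4. Knockout library 4 was the lowest with 6 reads, and the other 3 held 32, 21 and 21. The knockout mean was 20.0 ± 11.1 (SD, n = 4), at least 27.2-fold higher than the same floor. Sla lies inside Tg, the thyroglobulin gene, which runs on the opposite strand (66670753 to 66850721) and shares 0 exon bases with it. Tg itself had 44.3, 57.9, 28.9 and 24.2 in Ndp KO against 21.1, 6.39, 12.5 and 19.8 in WT (log2 difference 1.36 ± 0.56 (SE), limma adjusted p = 0.895). Tg was thus higher in every knockout library, as were 1.46% of all genes tested. The library kit does not mark strand, so reads of the Tg introns and of Sla cannot be told apart.

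Cd52, the surface glycoprotein, had a single read in wild type. Cd52 (ENSMUSG00000000682, chromosome 4, 134082448 to 134095082, minus strand) had 3.16, 20.6, 28.9 and 20.9 normalized counts in Ndp KO libraries 1 to 4, against 0, 0, 0 and 1.16 in WT libraries 1 to 4. Knockout library 1 held 3 reads, at the floor, while the other 3 held 21, 32 and 19, and wild type held 1 read in all, in library 4. The mean was 18.4 ± 10.8 in Ndp KO and 0.291 ± 0.581 in WT (SD, n = 4 each), and the ratio of summed reads, 78.8, had a wide 95% counting interval of 13.7 to 3152. Its exons share 172 bases with Crybg2, a crystallin-domain gene on the opposite strand (134060815 to 134092504), so some reads could belong to either. Crybg2 had 50.6, 23.5, 30.7 and 74.8 in Ndp KO against 54.9, 5.48, 97.5 and 63.9 in WT, and its genotypes overlapped.

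**Figure D1:**
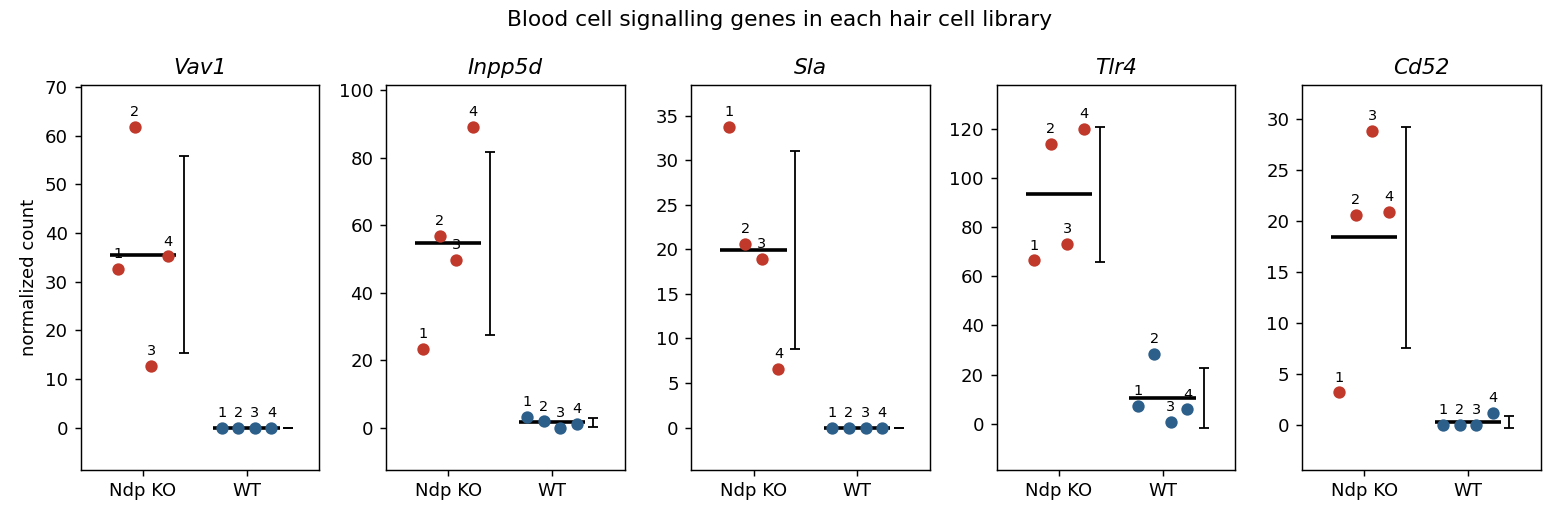
Normalized counts (y axis, linear) of Vav1, Inpp5d, Sla, Tlr4 and Cd52, with 4 Ndp KO libraries left of 4 WT libraries in each panel. Points are libraries, marked by number, lines are means and bars are SDs (n = 4). The WT points of Vav1 and Sla all sit at 0, and the highest WT point of any panel is the 28.3 of Tlr4.

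The 5 genes did not share 1 order across the knockout libraries. Library 2 was highest for Vav1, library 4 for Inpp5d and Tlr4, library 1 for Sla and library 3 for Cd52. Library 1 was lowest for Inpp5d, Tlr4 and Cd52 and highest for Sla. The spread among knockout libraries was 29.4% of the mean for Tlr4 and 49.6% to 59.0% for the other 4 (coefficient of variation), and the highest library exceeded the lowest 1.80 times for Tlr4 and 9.13 times for Cd52.

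Between genes, levels were compared per kilobase of merged exons, since longer transcripts give more reads. In knockout libraries Tlr4 had 16.8 ± 4.94 and Cd52 15.5 ± 9.14 normalized counts per kilobase (SD, n = 4). Vav1 followed with 9.65 ± 5.47, Inpp5d with 7.20 ± 3.57 and Sla with 2.17 ± 1.21. The range of Cd52, 2.66 to 24.3, overlapped those of Tlr4, Vav1 and Inpp5d, and the range of Vav1 overlapped those of Tlr4 and Inpp5d. Tlr4 and Inpp5d did not overlap, the lowest Tlr4 library (12.0) lying just above the highest of Inpp5d (11.7). Sla, at 0.718 to 3.67, lay wholly below Tlr4 and overlapped Cd52, Vav1 and Inpp5d. Apart from Tlr4 over Inpp5d and Tlr4 over Sla, the order of these genes does not exceed the spread between libraries. The length of Sla includes a long transcript with a retained intron, which lowers its value on this scale. In wild type the mean was 1.90 for Tlr4 and at most 0.245 for the other 4.

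The sign of the difference between genotypes is fixed for each of the 5 genes by how they were chosen, and its size varied with the settings. On the log2(normalized count + 1) scale the difference was 3.63 for Tlr4, 5.00 for Vav1, 4.48 for Inpp5d, 4.20 for Sla and 3.68 for Cd52. The pseudocount of 1 and the 0 values set much of this size. Over the alternatives the values of Tlr4 ran from 1.97 to 4.29, of Vav1 from 2.87 to 8.27 and of Sla from 2.20 to 7.43. In the authors' deposited table the shrunken log2 fold change, KO over WT, was 0.44 for Cd52 and 1.04 for Inpp5d, the extremes of the 5, values that belong to the choice of these genes. Only 1 date in the sample titles occurs in both genotypes, in library 2 of each. In that pair Tlr4 had 114 normalized counts in Ndp KO and 28.3 in WT, Inpp5d 56.9 in Ndp KO and 1.83 in WT, Vav1 61.8 in Ndp KO and 0 in WT, and Sla and Cd52 20.6 each in Ndp KO and 0 in WT.

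Reads in every library of 1 genotype and none in the other were rare and occurred in both directions. With at least 5 reads in each library of the one genotype and 0 in all of the other, there were 4 genes present in Ndp KO and 2 present in WT, Col6a4 and CR974586.1. The 4 were Vav1, Sla, 2810047C21Rik1, a transcribed pseudogene, and Adcyap1r1, which encodes the receptor of the neuropeptide PACAP. Adcyap1r1 had 106, 73.6, 7.22 and 86.9 normalized counts in Ndp KO libraries 1 to 4, against 0, 0, 0 and 0 in WT libraries 1 to 4. With at least 3 reads the counts were 6 genes in Ndp KO and 7 in WT. These genes were named after their values were seen.

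Macrophage markers were read from the same libraries, since Tlr4, Vav1 and Inpp5d are known from macrophages. All 18 markers were in the table. They summed to 134 to 197 CPM in Ndp KO and 74.5 to 174 CPM in WT. Of the 17 tested, 17 had a positive log2 difference with a median of 1.57, where the median over all genes tested was 0.02. None passed the limma threshold, which 1 of 18203 genes did in either direction (0.00549%, the gene CR974586.1, lower in knockout and outside these lists). At an unadjusted p under 0.05, 8 of the 17 were higher, where 3.1% of all genes tested were. Csf1r, the receptor for the main macrophage growth factor, had 248, 229.5, 240.0 and 820.5 in Ndp KO against 323, 125, 138 and 112 in WT (log2 difference 1.04 ± 0.47 (SE), limma adjusted p = 0.897). C1qa, a complement subunit, had 133, 150.1, 169.6 and 352 in Ndp KO against 165, 21.0, 35.9 and 33.7 in WT (log2 difference 2.01 ± 0.60 (SE), limma adjusted p = 0.895).

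Wild-type library 1 was the exception among wild-type libraries. It reached or exceeded the lowest knockout library for 17 of 18 macrophage markers and was the highest wild-type library for 16 of 18. In the same library Vav1, Sla and Cd52 had 0 reads, Inpp5d 3 and Tlr4 7. The 5 genes summed to 159, 274, 183 and 272 normalized counts in Ndp KO libraries 1 to 4, against 10.6, 30.1, 0.780 and 8.14 in WT libraries 1 to 4. The macrophage markers summed to 5305, 5618, 6119.8 and 7746 normalized counts in Ndp KO and to 6904, 3227, 2808 and 3810.0 in WT. Wild-type library 1 thus held more macrophage marker counts than knockout libraries 1 to 3 and 0.153 counts of the 5 genes per 100 of them, where the knockout libraries held 2.99 to 4.87 and the other wild-type libraries 0.0278 to 0.934. The direction of this ratio is fixed by the choice of the 5 genes. Leaving out C1qb, the most abundant marker, the ratio was 4.74 to 9.18 in Ndp KO and 0.0708 to 2.11 in WT.

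**Figure D2:**
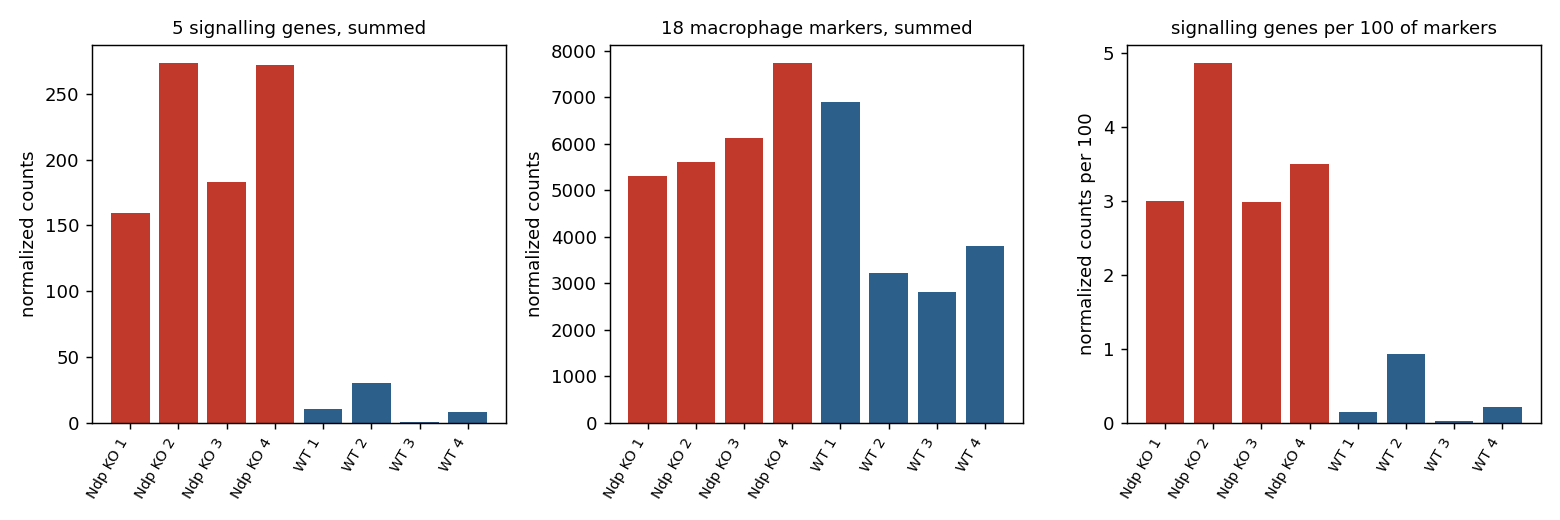
Summed normalized counts of the 5 genes, summed normalized counts of 18 macrophage markers, and counts of the 5 genes per 100 marker counts (bars from 0), for Ndp KO libraries 1 to 4 on the left and WT libraries 1 to 4 on the right. WT library 1 has a marker sum of 6904, within the knockout range, and a summed count of the 5 genes of 10.6.

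Markers of T cells, NK cells, monocytes, neutrophils and platelets were low in these libraries. Of 12 T and NK cell markers 8 were in the table, and they summed to 0.0267 to 2.25 CPM in Ndp KO and 0.385 to 1.22 CPM in WT. Of 14 monocyte and neutrophil markers 6 were in the table, at 5.33 to 10.7 CPM in Ndp KO and 3.44 to 9.68 CPM in WT, and platelet markers (5 of 8) were at 2.63 to 8.44 CPM in Ndp KO and 1.30 to 3.89 CPM in WT. Ptprc, which encodes the pan-leukocyte antigen CD45, had 2.11, 8.83, 35.2 and 42.9 in Ndp KO against 106, 34.7, 40.5 and 0 in WT (log2 difference -0.43 ± 1.39 (SE), limma adjusted p = 0.995). It was highest in wild-type library 1 and absent from wild-type library 4. Spi1, which encodes the myeloid factor PU.1, had 7.38, 22.6, 52.3 and 46.2 in Ndp KO against 22.2, 4.56, 18.7 and 3.49 in WT (log2 difference 1.36 ± 0.82 (SE), limma adjusted p = 0.924), with overlapping genotypes.

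The genes that work with the 5 were read next, in 8 lists of known partners and relatives. Together they held 145 genes of the table other than the 5, of which 110 passed the minimum and were tested. None passed the limma threshold, and edgeR and DESeq2 on recovered reads called 0 as well. DESeq2 called 0.136% of all genes in either direction. At an unadjusted p under 0.05 limma gave 7 higher (6.36%) and 1 lower, where 3.1% and 2.47% of all genes tested were, and edgeR gave 3 (Coro1a, Lsp1 and Tab2), where 4.55% of all genes were. By limma the 7 higher were Lbp, Ptgs2, Coro1a, Fcer1g, Lsp1, Srgn and Cyth4, and the 1 lower was Tab2. Genotypes did not overlap for Vav2 and Lsp1, which were higher in knockout (1.82%), and for Tab2, which was lower (0.909%), where 1.46% and 1.58% of all genes tested did so. The log2 difference was positive for 72 and negative for 38, with a median of 0.20, where 52.5% of all genes tested were positive.

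Among the partners of Tlr4, 12 of 19 tested genes had a positive difference and the median was 0.13, which was 0.01 without WT library 1 and -0.21 in the pair of the shared title date. Ly96, the co-receptor, had 44.3, 85.3, 58.6 and 81.4 in Ndp KO against 43.3, 41.1, 26.5 and 70.9 in WT (log2 difference 0.60 ± 0.43 (SE), limma adjusted p = 0.939). Cd14, which hands lipopolysaccharide to the receptor, had 22.1, 45.1, 69.5 and 38.5 in Ndp KO against 25.3, 1.83, 11.7 and 32.6 in WT (log2 difference 1.64 ± 0.79 (SE), limma adjusted p = 0.903). Both thus had reads in every library, with overlapping genotypes, but Cd14 in WT library 2 lay under the 3-read floor of 2.74. Tlr4 stood at 1 to 31 reads in wild type and was highest in that same library, at 28.3 normalized counts. Lbp, the serum protein that carries lipopolysaccharide, had 13.7, 12.8, 58.6 and 75.9 in Ndp KO against 0, 0, 0 and 19.8 in WT, with reads in wild type only in library 4 (log2 difference 3.86 ± 1.15 (SE), limma adjusted p = 0.895). Myd88, the shared adaptor, had 317, 234, 384 and 300.3 in Ndp KO against 91.9, 271, 288 and 310.4 in WT (log2 difference 0.48 ± 0.38 (SE), limma adjusted p = 0.940), and the difference was 0.07 without WT library 1. Tab2, an adaptor of the kinase Tak1, had 455, 478, 368 and 362 in Ndp KO against 694, 559.6, 511 and 766 in WT (log2 difference -0.60 ± 0.21 (SE), limma adjusted p = 0.895). Lbp was thus higher and Tab2 lower in knockout on average, neither past the threshold. The other Toll-like receptor genes had a median of 0.27 over 7 tested, which was 0.04 with edgeR, 0.58 with no minimum count, 0.02 without the shared title date and -0.01 in its pair. Among genes that TLR4 induces in macrophages, 6 of 15 in the table were tested, 2 were positive and 4 negative, and the median was -0.11. Its sign turned when genes under the minimum entered, to 0.43 with no minimum count and 0.40 with DESeq2. Ptgs2, which encodes the inducible cyclooxygenase, had 118, 43.2, 278 and 102 in Ndp KO against 0, 102, 0 and 26.7 in WT (log2 difference 3.92 ± 1.40 (SE), limma adjusted p = 0.895).

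The paralogs of Vav1 were expressed in both genotypes. Vav2 had 486, 231.5, 318 and 259.6 normalized counts in Ndp KO libraries 1 to 4, against 226, 230.9, 230.8 and 217 in WT libraries 1 to 4, which did not overlap, but by a narrow margin (log2 difference 0.46 ± 0.26 (SE), limma adjusted p = 0.922). Vav3 had 481, 734, 705 and 726 in Ndp KO against 753, 755, 1095 and 601 in WT, which overlapped (log2 difference -0.26 ± 0.23 (SE), limma adjusted p = 0.948). Rac2, the Rac GTPase of blood cells, had 5.27, 171, 202 and 113 in Ndp KO against 15.8, 3.65, 25.7 and 66.3 in WT and varied widely within both genotypes (log2 difference 1.87 ± 1.14 (SE), limma adjusted p = 0.924). Coro1a, an actin regulator of leukocytes, had 97.0, 118, 112 and 83.6 in Ndp KO against 30.6, 33.8, 33.5 and 84.9 in WT, with wild-type library 4 apart from the other 3 (log2 difference 1.27 ± 0.41 (SE), limma adjusted p = 0.895). Dock2, a Rac exchange factor of leukocytes, had 0, 12.8, 5.41 and 1.10 in Ndp KO against 117, 15.5, 8.58 and 6.98 in WT, highest in wild-type library 1 (not among the genes the naming rule took, and chosen after its values were seen). Over the 15 tested genes of this list the median was 0.20, with 11 positive, and it was 0.04 in the pair of the shared title date.

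Inppl1, the paralog of Inpp5d that is made in most tissues, had 1179.7, 1065, 1285 and 1488 in Ndp KO against 1192, 1562, 991 and 905 in WT, and its genotypes overlapped (log2 difference 0.13 ± 0.20 (SE), limma adjusted p = 0.982). Of 18 phosphoinositide genes tested, 11 were positive, with a median of 0.13 and 0 at an unadjusted p under 0.05. That median was 0.005 without WT library 4 and -0.37 in the pair of the shared title date. Sla2, the paralog of Sla, had 48.5, 26.5, 121 and 85.8 in Ndp KO against 19.0, 34.7, 27.3 and 54.6 in WT (log2 difference 0.92 ± 0.55 (SE), limma adjusted p = 0.924). Syk, the kinase whose signalling SLAP proteins dampen, had 55.9, 137, 5.41 and 30.8 in Ndp KO against 0, 8.22, 37.4 and 36.0 in WT, lowest in knockout library 3 and absent from wild-type library 1 (log2 difference 1.73 ± 1.26 (SE), limma adjusted p = 0.939). Fcer1g and Tyrobp, adaptors that recruit Syk, had 87.5, 90.2, 222 and 166 in Ndp KO against 125, 5.48, 28.8 and 52.3 in WT for Fcer1g (log2 difference 1.97 ± 0.78 (SE), limma adjusted p = 0.895) and 40.1, 43.2, 85.7 and 147 in Ndp KO against 122, 3.65, 7.02 and 40.7 in WT for Tyrobp (log2 difference 1.73 ± 0.96 (SE), limma adjusted p = 0.917), in both cases with wild-type library 1 among the knockout values. The 19 tested genes of this list had a median of 0.08, which was 0.36 without Ndp KO library 2 and -0.28 in the pair of the shared title date.

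The surface proteins listed with Cd52 had a median of 0.52 over 11 tested of 19 in the table, with 8 positive and 0 at an unadjusted p under 0.05. That median was -0.08 with a minimum of 5 CPM, 0.07 without Ndp KO library 4 and 1.14 without WT library 1. Pan-leukocyte genes had a median of 1.30 over 15 tested, 10 positive and 3 higher at an unadjusted p under 0.05, a median that was 0.37 with a minimum of 5 CPM. Their summed level was 247 to 357 CPM in Ndp KO and 239 to 302 CPM in WT. Lsp1, an actin-binding protein of leukocytes, had 34.8, 18.6, 14.4 and 14.3 in Ndp KO against 0, 11.0, 0 and 0 in WT, with reads in wild type only in library 2 (log2 difference 3.44 ± 1.00 (SE), limma adjusted p = 0.895).

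**Figure D3:**
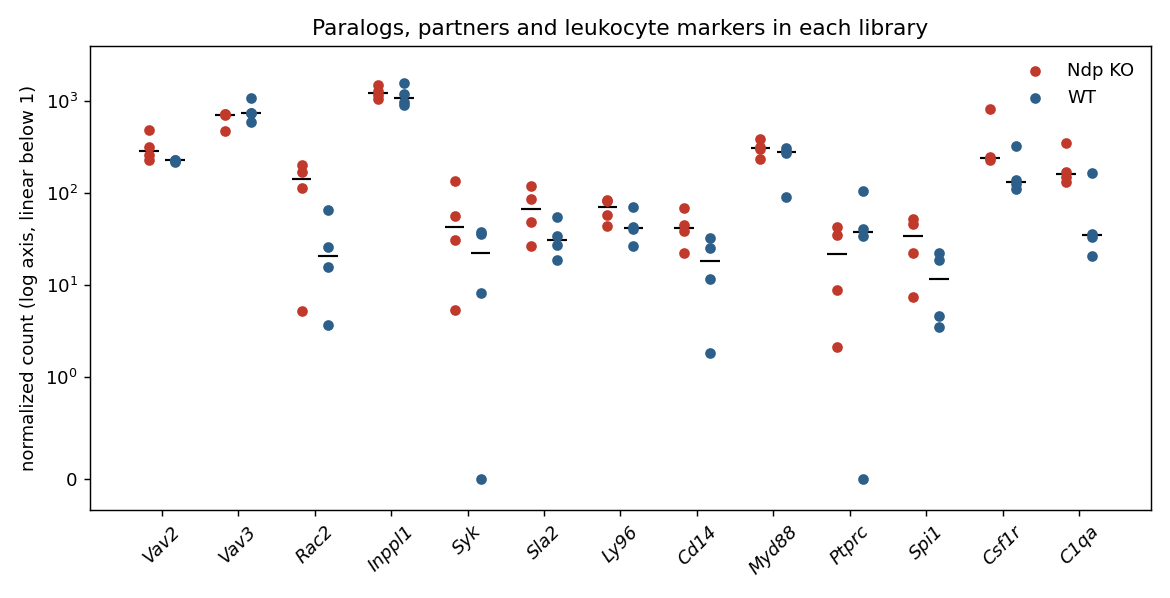
Normalized counts per library (y axis, logarithmic above a linear stretch near 0, as labelled) of paralogs and partners of the 5 genes and of leukocyte markers, with Ndp KO left of WT for each gene. Points are libraries and lines are medians. The genotypes overlap for every gene drawn except Vav2, whose knockout points lie between 231.5 and 486.

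The genes most like the 5 across libraries were found by Pearson's r between a gene's log2(normalized count + 1) and the mean z score of the 5 over 8 libraries. This r shares the genotype difference by which the 5 were chosen and is a description. The highest r were 0.971 for 2810047C21Rik1, 0.966 for Nudt17, a gene of a nudix hydrolase, and 0.956 for Nampt, the enzyme that recycles nicotinamide. Klf15, a zinc finger factor, followed with 0.954, and the tenth, Fam186b, had 0.932. The other 5 were Plekha4, D830039M14Rik, Gm15238, Il1rapl1 and Meis3. None of the 10 stood in the lists of leukocyte, macrophage or partner genes. 2810047C21Rik1 had 33.7, 34.3, 14.4 and 19.8 in Ndp KO against 0, 0, 0 and 0 in WT, and Nampt had 1461, 1554, 1536 and 1549.7 in Ndp KO against 1115, 1062, 1111 and 978 in WT (log2 difference 0.52 ± 0.13 (SE), limma adjusted p = 0.895). Among the 12 partners and markers for which it was taken, r was 0.847 for Lsp1, 0.830 for Coro1a, 0.784 for Lbp, 0.754 for C1qa, 0.670 for Ly96, 0.614 for Fcer1g, 0.607 for Csf1r, 0.594 for Cd14, 0.521 for Spi1, 0.505 for Rac2, 0.378 for Syk and -0.09 for Ptprc, and 247 genes had an r at least as high as that of C1qa.

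**Figure D4:**
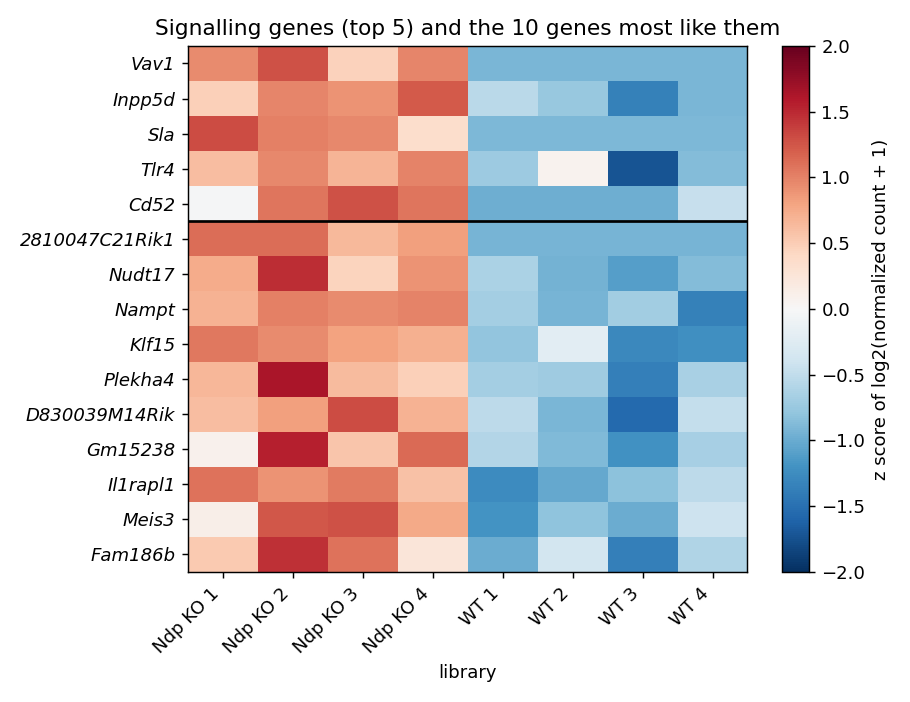
Heat map of z scores of log2(normalized count + 1), with the 5 genes and the 10 genes most like them in rows and libraries in columns, Ndp KO libraries left of WT libraries. A z score of 0 is the row's mean over the 8 libraries. All WT cells are below 0 except Tlr4 in WT library 2, and all knockout cells are above 0 except Cd52 in knockout library 1.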

How the data were processed

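RNA of Atoh1-GFP-sorted hair cells was measured in 8 libraries, 4 Ndp KO and 4 WT, grouped by the genotype labels. Complementary DNA was made with SMART-Seq v4 and libraries with Nextera XT, per the labels' protocols. The authors deposited 1 table of 25343 genes whose signal columns hold normalized counts, that is counts divided by a size factor per library. Beside them the authors deposited log2 fold changes, shrunken (KO over WT) and unshrunken (WT over KO), with p-values of a comparison whose headers follow DESeq2, and 265 genes lack an adjusted p. Tools named in the submitters' processing notes, with no role, are Salmon 0.14.2, bcl2fastq 2.20 and DESeq2 1.26.0, and the build is mm10. Whole reads were recovered from the size factors, 100.0% of 202744 values lying within 1e-06 of a whole number, and depth was 35077950 to 48329827 reads. The least total of a gene over the libraries was 10 reads. The reads carry no molecular identifiers, so PCR copies of 1 molecule count more than once.

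All genes were tested with limma 3.58.1 (R 4.3.3, two-sided, intensity trend) on log2(normalized count + 1), which understates changes of low genes, adjusted after Benjamini and Hochberg, at a threshold of 0.05. At least 10 normalized counts in at least 4 libraries were required, which 18203 genes passed, Vav1, Inpp5d and Tlr4 among them and Sla and Cd52 not. edgeR 4.0.16 (quasi-likelihood; 0 of 18174 genes called, 827 at an unadjusted p under 0.05) and DESeq2 1.42.0 (34 of 25078 called) on recovered reads were alternatives, with other pseudocounts (0.1, 5), minimums, CPM scaling and left-out libraries. Scripts were tested on simulated data. The 5 genes, the 8 lists of related genes and the 12 cell type lists were chosen with earlier results of these data known. Named genes are the 5, Ndp, 13 paralogs, partners and markers, the 4 genes of lowest limma p in each related list and the macrophage list, and the 10 most like the 5. Tg, Crybg2, Adcyap1r1 and Dock2 were added after their values were seen. Coordinates are 1-based in mm10, exon lengths come from GENCODE M21 and promoter windows from RefSeq.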

Additional observations from a re-analysis of the deposited data

Results flagged for a closer look

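Libraries far from the other 3 of their genotype were found in 14 of 119 groups of 4 libraries examined. Chance would give about 1 in 20 for independent groups. These groups share the same libraries and hold genes partly chosen by their values, so the count cannot be set against that rate. Among the 5 signalling genes the library flagged was WT library 4 for Cd52, whose 1.16 normalized counts are 1 read against none in the other 3. WT library 1 stood above its group for several macrophage or leukocyte genes, with 323 normalized counts of Csf1r, 165 of C1qa, 145 of Adgre1, 158 of Fermt3, an integrin activator of blood cells, and 129.9 of Cyth4. Ndp KO library 4 stood above its group for Csf1r (820.5) and C1qa (352).

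Other WT libraries stood above their group for Coro1a (84.9, library 4), Lbp (19.8, library 4) and Lsp1 (11.0, library 2). Vav3 was low in Ndp KO library 1 (481). Plekha4 was high in Ndp KO library 2 (157) and low in WT library 3 (51.5).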

How the results depend on the processing

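The number of genes changed over the whole table was 1 with limma, the same with CPM scaling, no minimum count or a pseudocount of 5. It was 34 with DESeq2, 0 with edgeR under TMM or RLE scaling, 0 with a minimum of 5 CPM, 0 with a pseudocount of 0.1, 0 without both libraries of the shared title date, and 0 to 2 with 1 library left out (2 without Ndp KO library 2, 0 without any other). Fewer libraries entered the last settings, and otherwise the cause was not tested. No related gene was called under any setting. The pan-leukocyte median (1.30) was 0.37 with a minimum of 5 CPM, 0.12 in the pair of the shared title date, and 0.86 to 1.42 with 1 library left out. The macrophage median (1.57) was 1.03 to 2.27 with 1 library left out, the highest without WT library 1. It was 0.98 with a minimum of 5 CPM, 0.99 with edgeR under TMM or RLE scaling and 1.02 with DESeq2.

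Of 58 named genes beside the 5, over 18 alternatives, the log2 difference changed sign in 20 of 1004 values, in 11 genes. In the pair of the shared title date, which has no test, 8 did so: Inppl1 (-0.55), Sla2 (-0.38), Myd88 (-0.21), Inpp5f (-0.42), Lyn (0.91), Ptgs2 (-1.23), Cxcl1 (1.00) and Itgal (-3.05). Under the other alternatives 3 did. Ptprc (-0.43) was 0.25 with a pseudocount of 0.1, 0.052 without the shared title date, and -1.87 to 0.38 with 1 library left out. Ly86 (0.78) was -0.22 to 1.48 with 1 library left out. Crybg2 (0.10) was -0.31 with DESeq2 and with edgeR under both scalings, -0.51 without the shared title date, and -0.77 to 0.54 with 1 library left out. With 1 library left out, differences moved by over 1.5 times, among others, for Vav2 (0.24 without Ndp KO library 1), Rac2 (3.03 without Ndp KO library 1, 1.18 without WT library 2), Sla2 (0.59 without Ndp KO library 3), Syk (0.59 without WT library 1), Cd14 (0.89 without WT library 2), Ly96 (0.37 without WT library 3), Csf1r (0.59 without Ndp KO library 4) and Lyn (-0.39 without Ndp KO library 1). DESeq2 called 2810047C21Rik1 (7.17), Nampt (0.52) and Il1rapl1 (2.68), which limma did not.

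No paired analysis was possible because the labels give no replicate numbers shared by the genotypes, and only 1 title date occurs in both. Counts of 0 to 31 reads in WT limit the size of each difference of the 5 genes, and a count of 0 allows up to 3 reads in a library. Pooled epithelia, a small RNA input and 4 libraries a genotype limit the precision.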

Other observations

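Summed levels of the cell type lists given here overlapped between the genotypes. Endothelial markers, the vessel cells on which norrin acts, summed to 76.9 to 110.4 CPM in Ndp KO and 71.5 to 106 CPM in WT, and to 4.68 to 8.29 CPM in Ndp KO and 2.29 to 5.23 CPM in WT without Egfl7, their most abundant gene. Of 7 tested, 6 had a positive log2 difference, with a median of 1.13, none called by limma and 1 higher at an unadjusted p under 0.05 (Tek, a vessel receptor kinase). Supporting cell markers, from the neighbours of hair cells, had 10 of 12 negative, a median of -0.33 and 4 lower at an unadjusted p under 0.05, with 0 called by limma and sums of 5848 to 7810.1 CPM in Ndp KO and 5203 to 9709.8 CPM in WT. The 4 were Hes1, Hes5 and Hey1, which are targets of Notch signalling, and Sox2, a factor of the sensory epithelium, named after their values were seen. Hair cell markers had a median of 0.03. Mesenchyme and fibrocyte markers had a median of 0.35, with 0 of 10 called by limma, 3 higher at an unadjusted p under 0.05 (Coch, Col1a2 and Tbx18) and 1 called higher by DESeq2 (Coch, the gene of an abundant inner ear matrix protein). Neuron and glia markers had a median of -0.06.

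B cell markers summed to 175 to 216 CPM in Ndp KO and 148 to 248 CPM in WT, nearly all from Ebf1, and to 2.56 to 3.93 CPM in Ndp KO and 2.72 to 7.15 CPM in WT without it. Of the mast cell list 2 of 9 genes were in the table, at 0.837 to 4.88 CPM in Ndp KO and 0.533 to 1.81 CPM in WT without Kit. Red blood cell markers summed to 1.99 to 5.58 CPM in Ndp KO and 1.57 to 6.96 CPM in WT. Among macrophage genes not described so far, Adgre1, which encodes the macrophage antigen F4/80, had 62.2, 85.3, 253 and 190.3 in Ndp KO against 145, 3.65, 0 and 14.0 in WT (log2 difference 3.67 ± 1.25 (SE), limma adjusted p = 0.895). Among signalling genes that went the other way, Lyn, a kinase of the Src family, had 24.2, 219.7, 86.6 and 187 in Ndp KO against 306, 117, 232 and 195 in WT (log2 difference -1.04 ± 0.63 (SE), limma adjusted p = 0.924), and Ikzf1, a lymphoid transcription factor, had 3.16, 1.96, 16.2 and 16.5 in Ndp KO against 9.50, 23.7, 21.8 and 77.9 in WT (log2 difference -1.74 ± 0.86 (SE), limma adjusted p = 0.903).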
